A study of Mus musculus with 12 samples.

Results

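Voltage-gated sodium channel subunits were examined in the trigeminal ganglia of mice split by their response to the neuropeptide PACAP, the pituitary adenylate cyclase-activating polypeptide, whose infusion can bring on migraine-like attacks in people. The 9 genes Scn1a, Scn3a, Scn8a, Scn9a, Scn10a, Scn11a, Scn2b, Scn3b and Scn4b were found by matching the Ensembl mouse identifiers of the deposited table to these symbols, and all 9 were present among its 51341 genes. The 2 groups were 6 responders and 6 nonresponders, each with 3 males and 3 females of the outbred CD1 stock, and each library came from 1 mouse. Responders 3, 4 and 5 and nonresponders 1, 3 and 6 were female. No allele, transgene or vehicle group is named in the labels, and all 12 mice were sorted only by their response to PACAP and by sex. The sources used here do not say how the response was scored or when PACAP had been given.

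Voltage-gated sodium channels open when a membrane depolarises, and the inward current that follows forms the upstroke of the action potential. A single large alpha subunit makes the pore, and smaller beta subunits with 1 membrane span change the gating of the channel and its delivery to the membrane. Sensory neurons of the trigeminal ganglion use a mixture of alpha subunits, some blocked by low doses of tetrodotoxin and others resistant to it. The resistant channels are known from nociceptors, the neurons that respond to noxious stimuli.

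The mixture can be read in the pore itself. The stretches below are the domain I pore loop of 5 alpha subunits, shown because they separate the tetrodotoxin-sensitive from the tetrodotoxin-resistant channels described here. They were read from GENCODE M21 transcripts of the GRCm38 build, on the coding strand from 5′ to 3′, and the capitals mark the codon at the position known to set sensitivity to the toxin.
Scn3a: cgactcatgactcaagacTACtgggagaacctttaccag
Scn8a: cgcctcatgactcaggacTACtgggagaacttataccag
Scn9a: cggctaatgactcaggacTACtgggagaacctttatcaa
Scn10a: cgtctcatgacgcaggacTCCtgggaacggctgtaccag
Scn11a: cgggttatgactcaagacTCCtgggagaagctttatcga
The marked codon is TAC (tyrosine) in Scn3a, Scn8a and Scn9a, an amino acid that goes with block by low doses of the toxin. It is TCC (serine) in Scn10a and Scn11a, the resistant pair. The stretches lie at chr2:65521795-65521833 on the minus strand (Scn3a), chr15:100971620-100971658 on the plus strand (Scn8a), chr2:66548983-66549021 on the minus strand (Scn9a), chr9:119666369-119666407 on the minus strand (Scn10a) and chr9:119805662-119805700 on the minus strand (Scn11a).

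In GRCm38, 3 of the genes lie on the minus strand of chromosome 2: Scn3a (ENSMUSG00000057182) at 65457118 to 65567627, Scn1a (ENSMUSG00000064329) at 66270778 to 66440840 and Scn9a (ENSMUSG00000075316) at 66480080 to 66634962. Scn10a (ENSMUSG00000034533) at 119608456 to 119719322 and Scn11a (ENSMUSG00000034115) at 119753759 to 119825456 are neighbours on the minus strand of chromosome 9. All 3 beta subunit genes lie on the plus strand of chromosome 9: Scn3b (ENSMUSG00000049281) at 40269217 to 40291618, Scn2b (ENSMUSG00000070304) at 45117782 to 45130070 and Scn4b (ENSMUSG00000046480) at 45138395 to 45154152. Scn8a (ENSMUSG00000023033) stands alone, at 100869858 to 101045938 on the plus strand of chromosome 15.

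Values are FPKM, which divide fragments by gene length and library depth, so that levels can be set side by side between genes. Library totals were 291601 to 358590 FPKM in responders and 286388 to 332367 FPKM in nonresponders. A step read from low values of single-exon genes implied roughly 17300000 to 37300000 fragments in responders and 22200000 to 38700000 in nonresponders. The fewest were implied in responder 1 and the most in nonresponder 4. Most of those values did not lie close to whole steps, so these depths are approximate. The labelled tissue was checked by its markers: all 10 general neuronal markers reached 1 FPKM in all 12 mice, as did 7 of 8 nociceptor markers and 8 of 8 markers of large-diameter sensory neurons. The samples were whole ganglia, in which fewer cells of a type and less RNA per cell cannot be told apart. Responder 1 stood apart: the sum of 7 pituitary hormone genes was 77880 FPKM there, 21.7% of its total, against 359 to 6845 FPKM in the other responders and 27.2 to 1053 FPKM in nonresponders. Its summed neuronal markers were the lowest of all mice, at 1779 FPKM. By the mean log2(FPKM + 1) of the same markers nonresponder 4 was the lowest, at 6.18, and responder 1 followed at 6.28. The sum of fibroblast and matrix markers was 391 ± 107 FPKM in responders and 1023 ± 390 FPKM in nonresponders (SD, n = 6 each), with no overlap between the groups. The sum of myelinating Schwann cell markers was 3340 ± 832 FPKM in responders and 5059 ± 816 FPKM in nonresponders, and the part of either tissue in the results below was not tested.

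The 9 subunits stood in much the same order of level from mouse to mouse. Scn4b was the highest, with a mean of 102 FPKM over the 12 mice. Scn10a followed at 65.6 FPKM, Scn11a at 38.6 FPKM, Scn9a at 27.1 FPKM and Scn8a at 26.1 FPKM. Scn2b averaged 6.45 FPKM, Scn3b 4.18 FPKM, Scn1a 3.22 FPKM and Scn3a 0.788 FPKM. Scn4b exceeded Scn10a, Scn10a exceeded Scn11a, Scn11a exceeded Scn9a and Scn8a exceeded Scn2b in 12 of 12 mice. Scn9a and Scn8a could not be put in order: Scn9a was the higher in 7 of 12 mice, and their geometric mean ratio was 1.05. Scn2b exceeded Scn3b in 11 mice, Scn3b exceeded Scn1a in 10 and Scn1a exceeded Scn3a in 11. The most even gene was Scn4b, with a coefficient of variation of 17.9% over the 12 mice, and Scn11a, Scn9a, Scn2b, Scn10a, Scn8a and Scn3b ranged from 18.5% to 28.1%. Scn1a and Scn3a were uneven, at 88.2% and 177%.

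**Figure D1:**
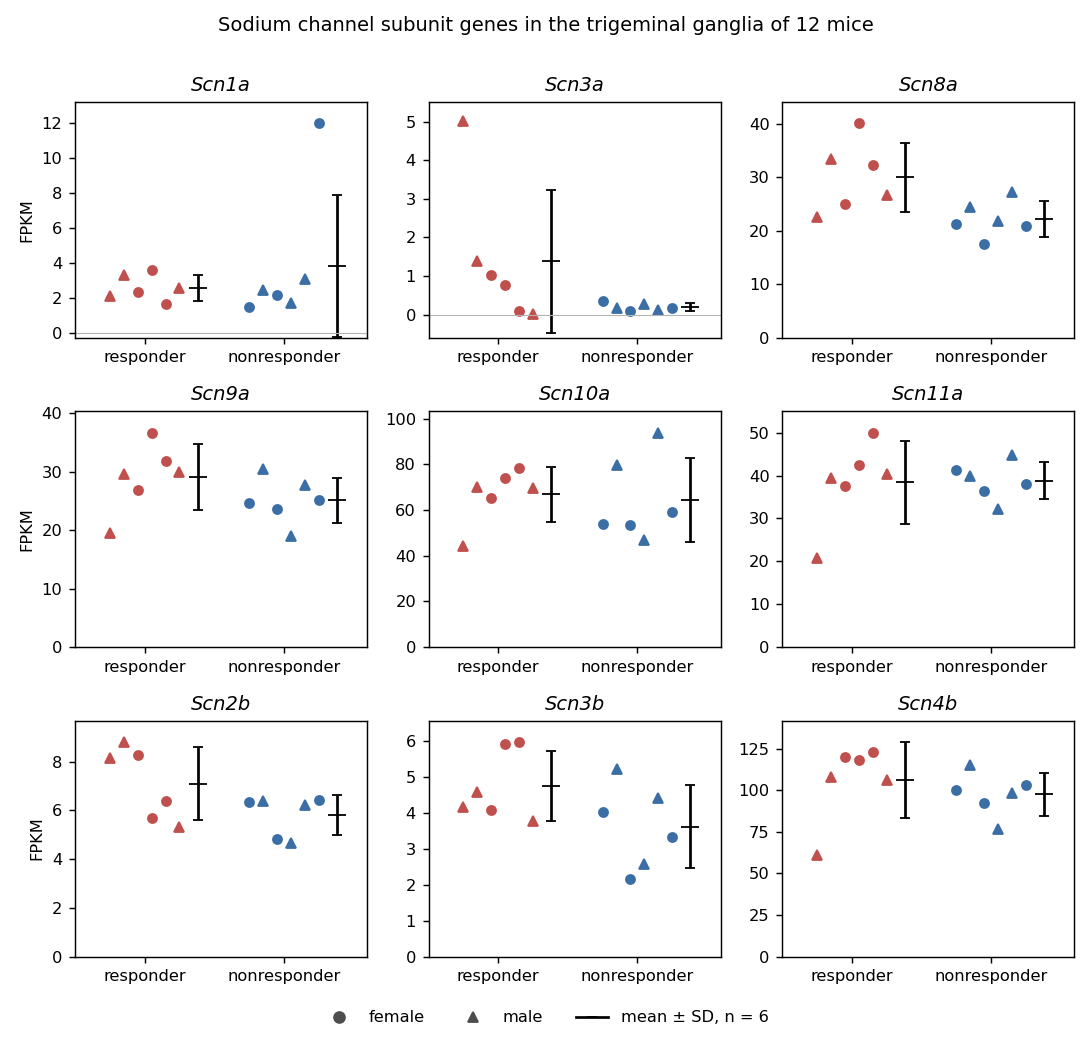
FPKM of each of the 9 sodium channel subunits in each mouse, with responders to the left of nonresponders. Circles are females and triangles males, bars give the mean ± SD (n = 6), and each panel has its own scale. Scn8a spans 22.6 to 40.1 FPKM in responders and 17.6 to 27.3 FPKM in nonresponders, and the single high points are responder 1 in Scn3a (5.01 FPKM) and nonresponder 6 in Scn1a (12 FPKM).

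The comparison of responders with nonresponders addressed whether the sodium channel make-up of the ganglion differed between mice by their response to PACAP. Of the 9 subunits, 0 passed limma at an adjusted p of 0.05. The same test called 3 of all 14203 genes tested, or 0.0211%. At an unadjusted p under 0.05 only Scn8a passed among the 9, against 7.4% of all genes tested. The log2 fold change was positive for 7 of the 9 and negative for 2, against 50.7% positive among all genes tested, and its median was 0.19 over the 9 and 0.003 over all genes. It was also positive for 8 of 10 general neuronal markers (median 0.09). Among other neuron markers tested it was positive for 6 of 8 of large-diameter neurons and 4 of 7 of nociceptors. For 0 of the 9 did the groups separate without overlap, which 0.549% of all genes did. All 9 subunits passed the filter on low values. Scn3a reached 1 FPKM in just 3 mice, all responders. Its presence among the genes tested, and so among the 7 positive, rests on the group in which it was high. The first number of each sample's description took 4 values in responders and 3 others in nonresponders. The sources used here do not give its meaning, and any batch it marks cannot be told apart from the response.

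Among the tetrodotoxin-sensitive alpha subunits, Scn8a encodes Nav1.6, the channel that clusters at nodes of Ranvier and axon initial segments. It measured 22.6, 33.4, 25.0, 40.1, 32.3 and 26.7 FPKM in responders 1 to 6, against 21.3, 24.5, 17.6, 21.8, 27.3 and 20.8 FPKM in nonresponders 1 to 6. The groups overlapped, with 3 responders above the highest nonresponder and all 6 above the nonresponder median of 21.5 FPKM. Means were 30.0 ± 6.46 FPKM in responders and 22.2 ± 3.32 FPKM in nonresponders (SD, n = 6 each). The log2 fold change was 0.40 (SE 0.15, 95% confidence interval 0.08 to 0.73). Its unadjusted limma p was 0.0201, rank 469 of all genes tested, and its adjusted p was 0.602. Leaving out 1 mouse at a time gave log2 fold changes of 0.30 to 0.49, the lowest without responder 4, the mouse with the highest value.

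Scn9a encodes Nav1.7, which boosts small depolarisations in nociceptors and whose loss in people removes the sense of pain. It ranged from 19.6 to 36.7 FPKM with a median of 29.8 FPKM in responders, and from 19.1 to 30.4 FPKM with a median of 25.0 FPKM in nonresponders. Scn9a had a log2 fold change of 0.19 (SE 0.15), with a confidence interval of -0.13 to 0.52 and an adjusted limma p of 0.772. The groups overlapped, with the lowest mouse of each close together, and the interval does not exclude a small difference in either direction. Leaving out 1 mouse at a time gave 0.13, without nonresponder 4, to 0.30, without responder 1.

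Scn1a encodes Nav1.1, a channel of myelinated sensory fibres and of central interneurons. It measured 2.10, 3.31, 2.35, 3.60, 1.65 and 2.61 FPKM in responders 1 to 6, against 1.5, 2.48, 2.21, 1.71, 3.11 and 12 FPKM in nonresponders 1 to 6. Nonresponder 6 alone was high, and the other 5 nonresponders lay within or close to the responders' range. Scn1a had a log2 fold change of -0.17 (SE 0.35, 95% confidence interval -0.95 to 0.61) and an adjusted limma p of 0.919. Without nonresponder 6 the log2 fold change was 0.18. The sum of central nervous system markers was also highest in that mouse, at 480 FPKM, against 135 to 298 FPKM in responders and 168 to 390 FPKM in the other nonresponders. The part of that tissue in the Scn1a value was not tested. Over the 12 mice the correlation of Scn1a with the mean log2 level of those markers was weak (Pearson r 0.298, Spearman rho 0.049, and r -0.369 without the 2 mice farthest from the median). These are descriptions over 12 libraries that share a preparation.

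Scn3a encodes Nav1.3, a channel of the developing nervous system that reappears in injured sensory neurons of the rat. It measured 5.01, 1.39, 1.02, 0.773, 0.0904 and 0.00841 FPKM in responders 1 to 6, against 0.348, 0.180, 0.0885, 0.275, 0.126 and 0.163 FPKM in nonresponders 1 to 6. Responders 1 to 4 lay above every nonresponder, and responder 6 lay below all of them. The log2 fold change was 0.71 (SE 0.35, 95% confidence interval -0.06 to 1.49), with an adjusted limma p of 0.687. Responders 1, 2 and 3 also held the highest pituitary sums of all mice, at 77880, 6845 and 3708 FPKM. Over the 12 mice Scn3a followed the mean log2 level of the pituitary genes with a Pearson r of 0.848, a Spearman rho of 0.301 and an r of 0.204 without the 2 mice farthest from the median. The part of pituitary tissue in the Scn3a values was not tested. Without any 1 of responders 1, 2 and 3 the gene no longer passed the filter on low values.

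**Figure D2:**
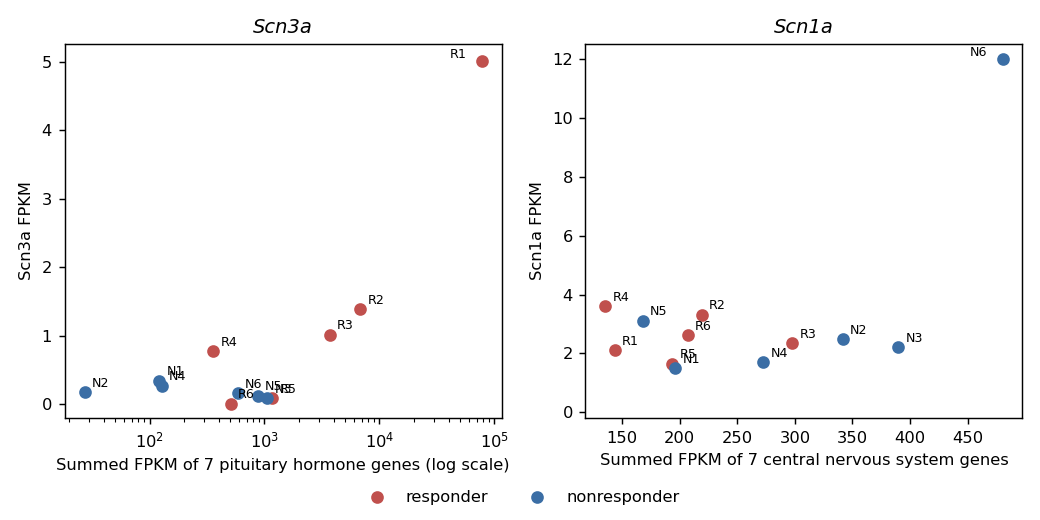
FPKM of the 2 uneven alpha subunits, each point 1 mouse (R, responder; N, nonresponder), with Scn3a against the summed FPKM of 7 pituitary hormone genes on a log axis and Scn1a against that of 7 central nervous system markers on a linear axis. Responder 1 holds the highest Scn3a (5.01 FPKM) and pituitary sum (77880 FPKM), and nonresponder 6 the highest Scn1a (12 FPKM) and central nervous system sum (480 FPKM).

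Scn10a and Scn11a, the tetrodotoxin-resistant pair, were the most abundant of the 6 alpha subunits compared here and gave no difference beyond the spread between mice. Scn10a encodes Nav1.8, which carries most of the action potential upstroke in nociceptors. It ranged from 44.2 to 78.4 FPKM with a median of 69.65 FPKM in responders, and from 46.7 to 93.8 FPKM with a median of 56.45 FPKM in nonresponders. The means were 66.8 ± 12 FPKM in responders and 64.4 ± 18.3 FPKM in nonresponders (SD, n = 6 each), and the log2 fold change was 0.07 (SE 0.19, 95% confidence interval -0.35 to 0.50, adjusted limma p 0.942). Scn11a encodes Nav1.9, whose slow, persistent current near the resting potential sets the excitability of nociceptors. It ranged from 20.8 to 50.02 FPKM with a median of 39.95 FPKM in responders, and from 32.2 to 44.7 FPKM with a median of 39.1 FPKM in nonresponders. Responder 1 held the lowest value of both genes, 44.2 FPKM for Scn10a and 20.8 FPKM for Scn11a. The Scn11a log2 fold change was -0.05 (SE 0.17, 95% confidence interval -0.43 to 0.33, adjusted limma p 0.955), and it was 0.11 without responder 1. For Scn10a, leaving out responder 1 gave 0.20 and leaving out nonresponder 4 gave -0.02.

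Because FPKM is per length, the alpha subunits can also be given as shares of their sum, a quantity in which a change of neuronal content common to all of them cancels. Scn10a and Scn11a together made up 62.3% ± 3.75 of the 6 alpha subunits in responders and 66.5% ± 2.69 in nonresponders (SD, n = 6 each). Their share ran between 56.9% and 66.1% in responders, and between 62.5% and 70.4% in nonresponders, so the groups overlapped. The Scn8a share was 17.9% ± 2.02 in responders, from 15.8% to 20.3%, and 14.5% ± 1.76 in nonresponders, from 13.2% to 17.9%. The Scn9a share was 17.3% ± 0.797 in responders and 16.4% ± 1.34 in nonresponders. The Scn10a share was 39.7% ± 1.49 in responders and 41.1% ± 4.2 in nonresponders, and the Scn11a share was 22.6% ± 2.59 in responders and 25.4% ± 2.54 in nonresponders. Scn3a reached 4.38% of the sum in responder 1, and Scn1a reached 7.73% in nonresponder 6. The summed alpha level was 168 ± 30.4 FPKM in responders and 155 ± 28.1 FPKM in nonresponders. The shares were not tested, since they are built from the values already tested above.

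**Figure D3:**
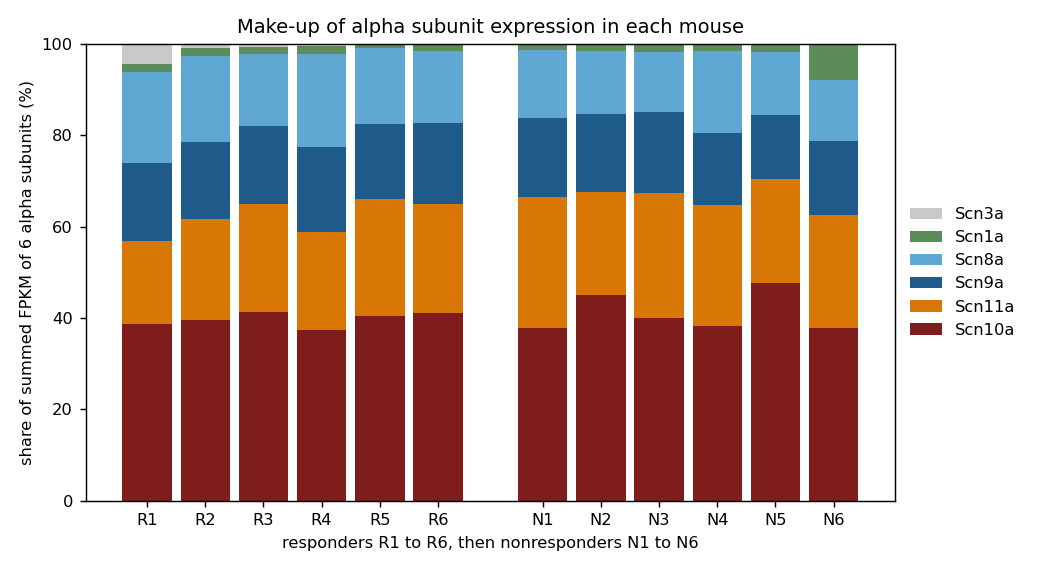
Share of each alpha subunit in the summed FPKM of the 6 alpha subunits, 1 bar per mouse, in percent, with responders to the left of nonresponders. Scn10a and Scn11a together take 56.9% to 66.1% in responders and 62.5% to 70.4% in nonresponders.

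The beta subunits were led by Scn4b. It encodes the beta4 subunit, whose cytoplasmic tail can act as an open-channel blocker and give rise to resurgent sodium current. Scn4b ranged from 61.2 to 123 FPKM with a median of 113 FPKM in responders, and from 76.4 to 115 FPKM with a median of 99.2 FPKM in nonresponders. Responder 1 was far below the other responders, which lay at 106 FPKM or more. The log2 fold change was 0.09 (SE 0.16, 95% confidence interval -0.25 to 0.44, adjusted limma p 0.903). Leaving out 1 mouse at a time gave 0.05, without nonresponder 4, to 0.23, without responder 1 (adjusted limma p 0.540).

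Scn3b encodes beta3, a subunit held to the alpha chain without a covalent bond. It measured 4.15, 4.56, 4.08, 5.91, 5.96 and 3.76 FPKM in responders 1 to 6, against 4.03, 5.22, 2.15, 2.57, 4.4 and 3.31 FPKM in nonresponders 1 to 6. The 2 highest values were of responders and the 3 lowest of nonresponders, with the rest mixed. Scn3b had a log2 fold change of 0.34 (SE 0.18, 95% confidence interval -0.05 to 0.73, adjusted limma p 0.705), and 0.22 without nonresponder 3. Scn2b encodes beta2, which is joined to the alpha chain by a disulfide bond. It measured 8.14, 8.80, 8.25, 5.70, 6.37 and 5.32 FPKM in responders 1 to 6, against 6.33, 6.37, 4.84, 4.66, 6.20 and 6.42 FPKM in nonresponders 1 to 6. Responders 1, 2 and 3 lay above every nonresponder and the other 3 lay among them. Its log2 fold change was 0.24 (SE 0.14, 95% confidence interval -0.06 to 0.54, adjusted limma p 0.727). Scn2b also followed the pituitary genes over the 12 mice (Pearson r 0.705, Spearman rho 0.573, r 0.639 without the 2 mice farthest from the median), and the part of that tissue in its values was not tested.

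Summed, the 3 beta subunits reached 118 ± 22.9 FPKM in responders and 107 ± 14.4 FPKM in nonresponders (SD, n = 6 each). The ratio of summed beta to summed alpha level was 0.70 ± 0.07 in responders and 0.70 ± 0.08 in nonresponders. Scn4b made up 89.5% ± 3.22 of the beta sum in responders and 91.2% ± 0.952 in nonresponders.

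**Figure D4:**
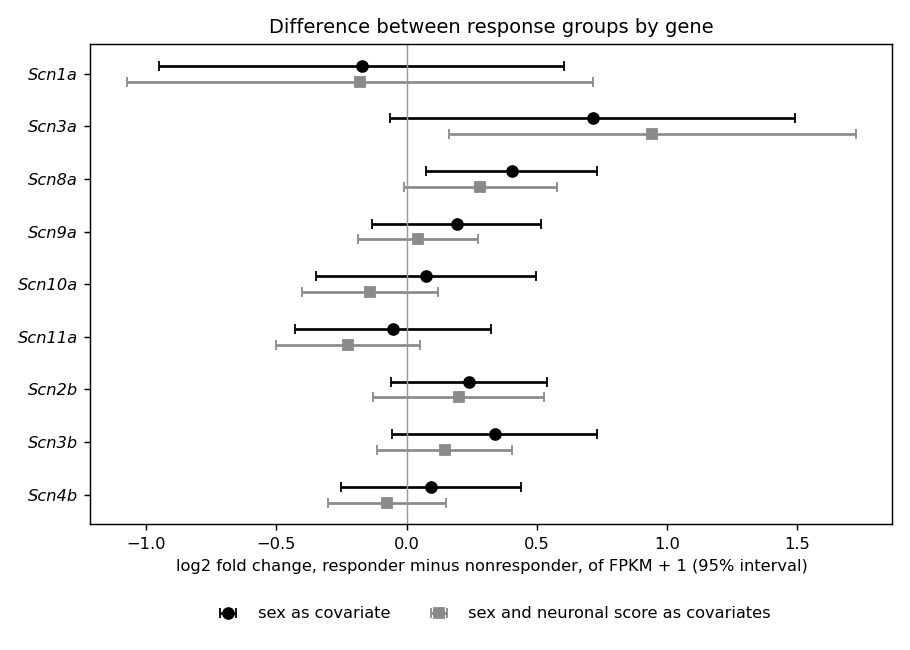
Log2 fold change of responders over nonresponders on the log2(FPKM + 1) scale for each subunit, with 95% confidence intervals from limma, with sex as covariate (black circles) and with the neuronal score, the mean log2 level of 10 neuronal markers, added (grey squares). With sex alone the Scn8a interval (0.08 to 0.73) leaves out 0 and the other 8 do not, and neither Scn8a nor any other subunit has an adjusted p under 0.05. Scn3a entered the test only through responders 1, 2 and 3, so nothing is read from its intervals.

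Within the sexes, 0 of the 9 subunits passed at an adjusted p of 0.05 in limma, and the same tests called 0.0141% of all genes in males and 0.00704% in females. At an unadjusted p under 0.05, 0 of the 9 passed in males, against 6.78% of all genes, and Scn8a and Scn3b passed in females, against 6.81%. Female Scn8a was 32.5 ± 7.51 FPKM in responders and 19.9 ± 2.02 FPKM in nonresponders (SD, n = 3 each). The female log2 fold change was 0.66 (SE 0.19, 95% confidence interval 0.24 to 1.08, adjusted limma p 0.595). Male Scn8a was 27.5 ± 5.44 FPKM in responders and 24.5 ± 2.75 FPKM in nonresponders (SD, n = 3 each), with a log2 fold change of 0.15 and an adjusted limma p of 0.888. The test of the difference between the sexes gave an interaction of 0.51 (SE 0.27, adjusted limma p 0.836) for Scn8a. For Scn3b the female log2 fold change was 0.61 (SE 0.24, adjusted limma p 0.707), the male one 0.06, and the interaction 0.55 (adjusted limma p 0.836). Without nonresponder 3 the Scn3b value was 0.43 in females and 0.36 for the interaction. The interaction passed for 0 of the 9 at an adjusted p of 0.05, against 0% of all genes. At an unadjusted p under 0.05 it passed for 0 of the 9, against 5.01%.

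In females, responders and nonresponders did not overlap for 5 of the 9 subunits, Scn8a, Scn9a, Scn10a, Scn3b and Scn4b, all with the higher values in responders. Among all genes 19.9% separated in females. For Scn3b the gap was narrow, with 4.08 FPKM in the lowest female responder and 4.03 FPKM in the highest female nonresponder. Over the 9 subunits the female log2 fold change had a median of 0.35, with 8 positive, and the male one a median of 0.06, with 6 positive. Scn3a is among the positive in both sexes, and it entered the test only through high responders. In males 0 of the 9 separated, against 9.46% of all genes. The 10 neuronal markers all had positive log2 fold changes in females. At an unadjusted limma p under 0.05, 0 of the 10 passed there, against 6.81% of all genes. Their part in the female separation was not tested. The neuronal score, the mean log2(FPKM + 1) of the 10 general neuronal markers, was 6.77 ± 0.13 in female responders and 6.48 ± 0.13 in female nonresponders (SD, n = 3 each). The score also separated in females without overlap, with 6.68 in the lowest responder and 6.58 in the highest nonresponder. It was 6.48 ± 0.18 in male responders and 6.49 ± 0.28 in male nonresponders. With the neuronal score as a further covariate, the female Scn8a log2 fold change was 0.46 and the interaction 0.30. The same fit gave Scn3b 0.24 in females and 0.16 for the interaction.

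Between the sexes themselves, 0 of the 9 subunits passed for females against males in limma at an adjusted p of 0.05, with the response as covariate, and the same test called 0.0563% of all genes. At an unadjusted p under 0.05, 0 of the 9 passed, against 4.53% of all genes. The log2 fold changes of females over males ran from -0.31 for Scn3a to 0.24 for Scn4b, with 5 positive and 4 negative.

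The more abundant subunits varied together and with the neuronal markers, and the set of 9 as a whole did so less. Scn8a, Scn9a, Scn10a, Scn11a and Scn4b had the highest mean levels. The 10 pairs among them had Pearson r values of 0.428 to 0.88 over the 12 mice, with a median of 0.762. Scn3b had r values to these subunits from 0.367 with Scn11a to 0.812 with Scn8a. Over all 36 pairs of the 9 subunits r ran from -0.771 to 0.88, with a median of 0.221. Scn1a stood outside, with r between -0.104 and 0.168 to every other subunit, and Scn3a was closest to Scn2b, at 0.68. With the neuronal score, r was 0.867 for Scn4b, 0.853 for Scn9a, 0.812 for Scn3b, 0.77 for Scn10a, 0.737 for Scn11a and 0.637 for Scn8a. It was 0.325 for Scn2b, 0.019 for Scn1a and -0.255 for Scn3a. Without the 2 mice farthest from the median, these 3 became 0.051, 0.247 and 0.19, and the first 6 ran from 0.55 to 0.888. These correlations are descriptions on the log2(FPKM + 1) scale over 12 libraries that share depth and dissection differences.

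The neuronal score was 6.62 ± 0.21 in responders and 6.48 ± 0.20 in nonresponders (SD, n = 6 each). Its marker Snap25 was at 34.2 FPKM in responder 1, the mouse with the high pituitary sum, and at 4.95 to 9.9 FPKM in the other 11 mice, and its part in the score of that mouse was not tested. With the score as a further covariate, the Scn8a log2 fold change was 0.28 (95% confidence interval -0.01 to 0.58, adjusted limma p 0.569), and its unadjusted p of 0.0561 missed 0.05. Scn9a then had a log2 fold change of 0.04, Scn3b of 0.15 and Scn2b of 0.20. Scn10a was at -0.14 (adjusted limma p 0.721), Scn11a at -0.22 (adjusted limma p 0.603) and Scn4b at -0.07 (adjusted limma p 0.817). Scn3a was at 0.94 (adjusted limma p 0.541), a value that rests on its entry through 3 high responders. Over all 12 mice, Scn8a and Scn3b had the strongest correlations with the central nervous system markers, both negative. For Scn8a, r with the mean log2 level of the central nervous system markers was -0.718 (Spearman rho -0.706, r -0.424 without the 2 mice farthest from the median). For Scn3b it was -0.653 (Spearman rho -0.643, r -0.578 without its 2 farthest mice). Over the remaining subunits r ran from -0.392 for Scn3a to 0.298 for Scn1a. Without the 2 farthest mice of each, that range became -0.79 for Scn9a to -0.051 for Scn2b. Scn9a, Scn11a (-0.586) and Scn10a (-0.518) were then more strongly negative than Scn8a. Of the 7 central nervous system markers Mog and Neurod6 were under 1 FPKM in all mice. Among the 5 tested the log2 fold change was negative for Gfap, Mobp, Aqp4 and Tmem119 and positive for Slc17a7 (0.20). The part of that tissue in the values of Scn8a, Scn3b or any other subunit was not tested.

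For each subunit the 2 protein-coding genes with the most similar profile over the 12 mice were named, by Pearson r of log2(FPKM + 1), as a description. For Scn8a they were Pnpla6 (r 0.924) and Rgs4 (r 0.888), for Scn9a Map7d2 (0.976) and Atl1 (0.974), for Scn10a Gabbr1 (0.952) and Ano8 (0.951), and for Scn11a Coro2a (0.975) and Crip2 (0.967). For Scn4b they were Nat8l (0.991) and Calm3 (0.987), for Scn3b Cpt1a (0.901) and Coasy (0.896), and for Scn2b Dync1h1 (0.901) and Polr2f (0.883). All of these stayed at r 0.737 or more without the 2 mice farthest from the subunit's median. For Scn1a the nearest were Src (0.915) and Hoxd8 (0.837), and Hoxd8 dropped to 0.152 without the 2 farthest mice. For Scn3a they were H2-M3 (0.957) and Bex1 (0.948), with rank correlations of 0.615 and 0.552.

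The remaining subunits of the family gave 0 of 6 genes past an adjusted p of 0.05 in limma and 0 of 6 at an unadjusted p under 0.05, with 3 positive and 3 negative log2 fold changes. Scn7a, a relative of the alpha subunits that lacks the usual voltage gating, was at 59.1 ± 8.76 FPKM in responders and 61.1 ± 7.09 FPKM in nonresponders (SD, n = 6 each). Scn2a, a central neuronal alpha subunit, had 1.85 ± 0.557 FPKM in responders and 1.44 ± 0.373 FPKM in nonresponders. Scn4a, the skeletal muscle alpha subunit, had 1.18 ± 0.240 FPKM in responders and 2.67 ± 2.46 FPKM in nonresponders. The 2 high Scn4a values were 5.71 FPKM in nonresponder 3 and 5.95 FPKM in nonresponder 4, the mice whose summed skeletal muscle markers were 1425 and 1663 FPKM, and the part of muscle in them was not tested. Nalcn, the sodium leak channel, had 9.75 ± 3.71 FPKM in responders and 7.83 ± 1.35 FPKM in nonresponders, with 17.1 FPKM in responder 1.

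Among 23 genes whose products anchor, bind or modify sodium channels, 0 passed an adjusted p of 0.05 in limma, and 2 passed at an unadjusted p under 0.05, against 7.4% of all genes tested. Log2 fold changes were positive for 15 and negative for 8, against 50.7% positive among all genes, with a median of 0.05. Ank2, which encodes the scaffold ankyrin-B, was at 74.8 ± 16.1 FPKM in responders and 52.7 ± 10.8 FPKM in nonresponders (SD, n = 6 each), with a log2 fold change of 0.49 (SE 0.16, adjusted limma p 0.579). Fgf14, an intracellular factor that binds the tail of the channel, was at 2.30 ± 2.82 FPKM in responders and 0.627 ± 0.292 FPKM in nonresponders, and responder 1 alone had 7.95 FPKM. Nrcam, an adhesion molecule of the node of Ranvier, was at 37.4 ± 4.6 FPKM in responders and 31.5 ± 4.93 FPKM in nonresponders, with a log2 fold change of 0.25 (adjusted limma p 0.681).

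The values of close relatives are uncertain where reads could have been split. Stretches of 200 or more bases with 90% identity or more were shared between Scn3a and Scn1a (92.7% over 928 bases), Scn3a and Scn2a (94.4% over 286 bases), Scn9a and Scn3a (91.7% over 494 bases) and Scn1a and Scn2a (93.5% over 245 bases). Scn2b had short matches to 5 genes, and 0 were found for Scn8a, Scn10a, Scn11a, Scn3b and Scn4b. The antisense gene Gm13629 overlaps exons of Scn9a on the other strand and averaged 2.34 FPKM. The sources used here do not say whether strand was used in counting, so reads of the 2 genes cannot be told apart.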

How the data were processed

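RNA of trigeminal ganglia was measured in 12 mice by paired-end sequencing. Per the labels' protocols, frozen ganglia went to an outside company for RNA extraction and poly A selected libraries. The submitters' processing notes name STAR (version 2.6.0a), StringTie (version 1.3.5) and the builds GRCm38 and mm10. The authors deposited 1 table of FPKM values, with 51341 genes. Its header names no unit, and FPKM was inferred from the values and from StringTie in the processing notes. In single-exon genes, the most common low product of value and gene length in each mouse was taken as the step of a single fragment. Only 18.6% to 25.3% of the low values of these genes lay within 0.05 of a whole step, so most did not share it. Whole reads were therefore not recovered, and no count test was run. The implied depth of 17300000 to 38700000 fragments per mouse is a rough estimate, and precision may differ accordingly. Identical columns numbered 0 pairs.

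Symbols and coordinates came from GENCODE M21, which held 51076 of the identifiers. log2(FPKM + 1) was tested with limma 3.58.1 in R 4.3.3 (eBayes, no trend) on the 14203 genes that reached 1 FPKM in 3 or more mice. Sex was the covariate for responders against nonresponders, 4 cell means gave the contrasts within each sex and the interaction, and the response group was the covariate for females against males. Adjusted p values are 2-sided Benjamini-Hochberg values over all genes tested, with a threshold of 0.05. Fold changes on this scale understate those of low genes. Animals are separate mice, so the spread includes the animals. Near copies were sought with blastn 2.17.0. The procedure was tested on simulated data. Of the planned tests for counts and for FPKM, that for FPKM was used. No table of proteins was used here, so no amino acid sequence is shown.

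The text names all 9 subunits, up to 4 genes each of 2 further lists with the smallest p, beside Scn7a, which was added after its values were seen, and for each subunit the 2 protein-coding genes with the highest Pearson r. Some genes that this rule names, and 1 sequence, are not reported here. The subunits and lists were chosen with earlier results of these data known. Alternatives tried were the pseudocount (0.1), the filter on low values (none, or 5 FPKM), rescaling, quantile normalization, covariates, the replicate block, averaging by label number, eBayes options, array weights and leaving out each mouse.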

Additional observations from a re-analysis of the deposited data

Results flagged for a closer look

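Dixon's test at its 95% critical value was applied to 18 sets of 6 values (9 subunits in 2 groups). In 3 of the sets 1 mouse lay far from the others of its group. Chance does so in about 1 in 20 sets where values are normally distributed and sets are independent. These sets were FPKM values of the same mice, and responder 1 was flagged for both Scn3a and Scn4b, so that rate is only nominal here. Scn1a was 12 FPKM in nonresponder 6, a gap to the next mouse of 0.847 of the group's range. Scn3a was 5.01 FPKM in responder 1, with a gap of 0.724 of the range. Scn4b was 61.2 FPKM in responder 1, with a gap of 0.731 of the range. Responder 1 also had the highest pituitary sum (77880 FPKM) and the lowest neuronal marker sum (1779 FPKM). The neuronal score was lowest in nonresponder 4 (6.18), with 6.28 in responder 1. Nonresponder 6 had the highest sum of central nervous system markers (480 FPKM). The part of other tissue in these values was not tested.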

How the results depend on the processing

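Called subunits stayed at 0 of 9 in every contrast and under every alternative run, and the order of mean levels kept 8 of 8 neighbours. Over 24 alternatives the Scn8a log2 fold change was 0.28 to 0.49, with adjusted p values of 0.262 to 0.84 and an unadjusted p under 0.05 in 22. Scn3a could be tested in 19. Directions turned as follows. Scn1a was 0.18 without nonresponder 6 (-0.34 to 0.18 over the mice left out). Scn10a was -0.14 with the neuronal score as covariate and -0.022 to 0.20 over the mice left out. Scn11a was 0.029 averaged by label number, 0.035 with array weights, 0.061 without responder 1 and nonresponder 4 together (a setting chosen after seeing the data) and -0.12 to 0.11 over the mice left out. Scn4b was -0.074 with the neuronal score, and Nalcn -0.0022 without responder 1 and nonresponder 4. The cause was not tested.

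Genes called for responders against nonresponders (3) were 1 with the replicate block, 1 averaged by label number and 2 to 6 over the mice left out. In males (2) they were 4 with pseudocount 0.1, 0 with the replicate block, 1 with the neuronal score, 12 with array weights, 1 without responder 1 and nonresponder 4, and 1 to 5 over the mice left out. In females (1) they were 5 with no filter, 0 with the replicate block, 10 with array weights, 3 without responder 1 and nonresponder 4, and 1 to 5 over the mice left out. For the interaction (0) they were 1 with the filter at 5 FPKM, 4 with array weights and 0 to 3 over the mice left out. For females against males (8) they were 5 with the filter at 5 FPKM, 5 with the replicate block and 6 to 9 over the mice left out. Array weights were estimated gene by gene, because the default estimate did not converge for the cell means, a choice made after seeing the data.

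The replicate numbers did not pair the mice: same-numbered mice correlated at -0.273 to 0.133 in their deviations from the group means, 1 of 6 over 0.1, and 0 correlated best with their own number. With the replicate block the female Scn8a log2 fold change was 0.43 and the interaction 0.05. No setting moved the median log2 fold change of all genes by over 0.1. Low genes such as Scn3a rest on few fragments, and the implied depth, a rough estimate, was lowest in responder 1.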
